A study of Mus musculus with 12 samples.

Results

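The regions described here were 6871 distal H3K4me1 peaks that were called in mouse small-intestinal crypts and had no counterpart in villi. They were chosen by the called positions of the H3K4me1 lists alone: an autosomal peak of the crypts list was kept when it shared no base with a peak of the villi list and lay more than 1 kb from every protein-coding transcription start site of GENCODE M21 on GRCm38. They made up 18.5% of the 37112 distal autosomal H3K4me1 peaks of crypts, and were drawn from 54642 crypts H3K4me1 peaks and 169081 peaks in the 10 lists used. The absence from villi and the distance from start sites are therefore properties of the choice and not findings.

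Crypts and villi of mouse small intestine were separated by scraping the villi and releasing the crypts with EDTA, and the methods used here give no strain, age or treatment that would divide the mice further. The study deals with proteolytic clipping of the histone H3 tail in villi. The paper reports strongly lower intensity in villi for marks near the N-terminus, H3K4me1 and H3K4me3 among them, and ascribes it to cleavage. It reports H3K27me3 as retained at repressed promoters. How far such a loss of signal enters the H3K4me1 calls compared here was not tested. Chromatin of each compartment was immunoprecipitated for 5 histone H3 modifications with Drosophila S2 chromatin added as a spike-in (ChIP-Rx), which with an input for each compartment gave 12 libraries. Each modification was profiled in 1 library of crypts and 1 of villi, so the differences between compartments carry no replicate error and none was tested. The villi list held 55341 H3K4me1 peaks, close to the number in crypts. Read counts are not part of the lists, and the depth behind a call is unknown.

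Crypts hold the intestinal stem cells, the Paneth cells that neighbour them and their dividing progeny, whereas villi are covered mainly by differentiated enterocytes that absorb nutrients. H3K4me1 is placed by the MLL3 and MLL4 complexes at enhancers, the regulatory elements that act on promoters from a distance, and is found at primed as well as active elements. H3K4me3 marks the start sites of active genes, H3K27me3 is placed by Polycomb repressive complex PRC2 at silent developmental genes, and H3K9me3 and H3K9me2 mark heterochromatin.

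To show what such elements look like, the 300 bases around the peak centre are printed for 5 members that results below refer to. Each is named by its nearest gene. Hnrnpr and Mycl name the 2 highest-scoring members that touched no exon, Rgmb and Fzd5 the highest-scoring ones at stem cell and Paneth cell genes, and Myc, chosen after the values were seen, the best at the gene with most crypts-only peaks. The sequences were read from the mm10 (GRCm38) reference. Capitals mark matches, on either strand, to any of 12 short motifs, whose letters and shares close the report. No motif contains another, although neighbouring matches may share bases.
Hnrnpr member, chr4:136302567-136302866, plus strand: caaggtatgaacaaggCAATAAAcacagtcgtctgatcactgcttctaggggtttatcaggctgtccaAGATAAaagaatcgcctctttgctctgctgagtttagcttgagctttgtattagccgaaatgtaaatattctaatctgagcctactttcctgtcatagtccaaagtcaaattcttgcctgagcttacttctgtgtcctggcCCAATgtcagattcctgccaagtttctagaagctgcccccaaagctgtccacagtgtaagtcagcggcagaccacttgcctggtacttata
Mycl member, chr4:123005242-123005541, plus strand: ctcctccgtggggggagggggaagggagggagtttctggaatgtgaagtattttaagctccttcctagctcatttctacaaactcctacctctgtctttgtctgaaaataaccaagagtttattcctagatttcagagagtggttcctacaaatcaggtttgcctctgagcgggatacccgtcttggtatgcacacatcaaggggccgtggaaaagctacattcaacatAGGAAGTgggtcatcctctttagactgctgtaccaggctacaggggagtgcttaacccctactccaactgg
Rgmb member, chr17:16005025-16005324, plus strand: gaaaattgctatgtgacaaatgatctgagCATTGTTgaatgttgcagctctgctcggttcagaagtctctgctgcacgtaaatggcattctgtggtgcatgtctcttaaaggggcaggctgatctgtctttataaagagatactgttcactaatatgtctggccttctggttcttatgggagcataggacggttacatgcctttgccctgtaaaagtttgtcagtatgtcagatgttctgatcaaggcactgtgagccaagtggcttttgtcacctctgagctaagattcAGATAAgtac
Fzd5 member, chr1:64809163-64809462, plus strand: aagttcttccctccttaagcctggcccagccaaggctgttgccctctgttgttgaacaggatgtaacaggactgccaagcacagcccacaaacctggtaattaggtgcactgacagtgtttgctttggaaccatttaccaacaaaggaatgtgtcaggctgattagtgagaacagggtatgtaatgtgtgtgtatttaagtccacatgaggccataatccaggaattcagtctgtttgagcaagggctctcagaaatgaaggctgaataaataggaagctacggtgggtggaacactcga
Myc member, chr15:61906365-61906664, plus strand: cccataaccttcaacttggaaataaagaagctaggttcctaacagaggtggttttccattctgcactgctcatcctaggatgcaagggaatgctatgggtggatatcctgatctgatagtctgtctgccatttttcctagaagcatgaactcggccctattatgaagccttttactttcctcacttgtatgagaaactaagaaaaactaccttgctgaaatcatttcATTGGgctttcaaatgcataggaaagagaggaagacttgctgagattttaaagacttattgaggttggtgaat
The Hnrnpr window held 1 match each to the GATA, CDX and NF-Y letters, the Mycl window 1 to ETS, the Rgmb window 1 each to GATA and SOX, the Myc window 1 to NF-Y and the Fzd5 window none. A match describes the letters only and is not a bound site.

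The crypts-only peaks were narrow and scored low within their list. Their width had a median of 830 bp and ranged from 328 to 5081 bp, and together they covered 6.53 Mb, whereas distal crypts peaks with a villi counterpart had a median width of 1628 bp. The score of a peak was read as the −log10 p-value of its call, although a q-value is possible. The score had a median of 13.4 among the crypts-only peaks and 22.6 among those with a counterpart, and the best crypts-only peak, at 44.9, was number 3806 of the crypts list by score. Only 809 of the 6871 (11.8%, 95% Wilson interval 11.0 to 12.6%) were in the top 50% of the crypts list, against 59.1% (58.6 to 59.7%) of the shared peaks. The 8118 distal peaks called in villi only were alike in these respects, with a median width of 832.5 bp and a median score of 12.4 in their own list. All intervals given are Wilson intervals, which hold only the error of counting and treat peaks as independent although neighbours are not.

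The number of crypts-only peaks depended on how much overlap counted as a counterpart. When a single villi peak had to share 50% of the length of both peaks it was 12154 in place of 6871. A crypts peak that lies inside a much wider villi peak also fails this rule. The rise therefore does not separate partial overlap from unequal width. Few peaks lay at the 1 bp border itself: of the crypts-only peaks, 7 lay 100 bp or less from a villi peak, the nearest at 11 bp, and 12 shared peaks overlapped villi peaks by 100 bp or less, the least by 10 bp. The nearest villi peak was a median of 5930 bp away, 12.2% (11.5 to 13.0%) of the crypts-only peaks had one within 1 kb and 36.6% (35.5 to 37.7%) had none within 10 kb. At the other border, 50 crypts-only peaks lay between 1 and 1.1 kb from a start site and entered the set, and 50 lay between 0.9 and 1 kb and did not.

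Absence from the villi list is not the same as absence of a villi call. Peak names carry serial numbers in genome order, and the numbers have gaps, so that some numbered calls are not in the lists. Over the whole villi list, 76.1% of the intervals between neighbouring peaks had no missing number. For 1429 of 6859 crypts-only peaks with villi peaks on both sides (20.8%, 19.9 to 21.8%) no villi number was missing between the flanking villi peaks. At 2988 (43.6%) 1 number was missing and at 2442 (35.6%) 2 or more were, at places within the interval that are not known. Among those in the top 50% of the crypts list, 67 of 808 (8.29%, 6.58 to 10.4%) had no missing villi number. Intervals that hold a crypts-only peak may be longer than others. For most of these peaks a villi call that was not kept and no villi call at all cannot be told apart.

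Crypts-only peaks lay further from genes than the other distal peaks. The distance to the nearest protein-coding start site had a median of 24848 bp and a maximum of 1530838 bp, compared with medians of 18753 bp for shared and 17987 bp for villi-only peaks. Within 10 kb of a start site were 26.5% (25.5 to 27.6%) of the crypts-only, 33.1% (32.6 to 33.6%) of the shared and 33.1% (32.1 to 34.1%) of the villi-only peaks. In the top 50% of each list these shares were 27.2% (24.2 to 30.4%), 33.1% and 36.4%, in the same order. Introns held 3089 crypts-only peaks (45.0%, 43.8 to 46.1%), intergenic sequence 2844 (41.4%, 40.2 to 42.6%), and 938 (13.7%, 12.9 to 14.5%) touched an exon of any annotated transcript. The intergenic share was 35.1% (34.5 to 35.6%) for shared and 31.4% (30.4 to 32.4%) for villi-only peaks. Among peaks under 1 kb wide the intergenic shares were 42.8%, 39.5% and 35.1% in the same order.

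**Figure D1:**
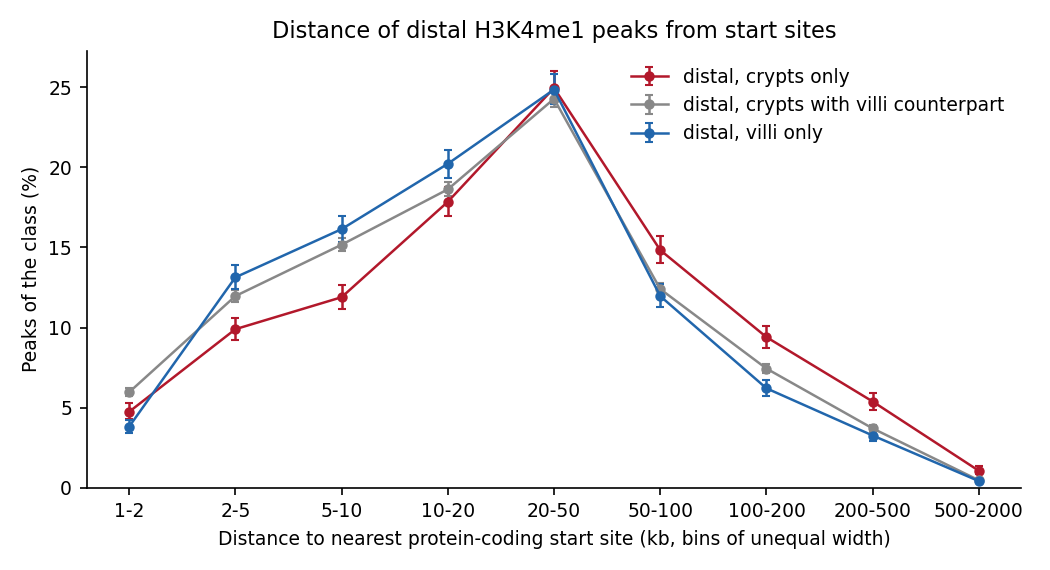
Share of distal H3K4me1 peaks (y axis, %) in bins of distance to the nearest protein-coding start site (x axis, kb), for crypts-only peaks, crypts peaks with a villi counterpart and villi-only peaks, with 95% Wilson intervals as bars. The crypts-only line runs below the others between 2 and 10 kb and above them from 50 kb on, with 14.8% of its peaks at 50 to 100 kb against 12.4% and 12.0%.

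The crypts-only share of distal crypts peaks differed little between chromosomes, from 16.6% on chromosome 8 to 20.4% on chromosome 18. Repeats, as soft-masked bases of the reference, took a median of 15.9% of a crypts-only peak and 17.3% of a shared peak. The centre windows had a mean G+C content of 45.5% in crypts-only, 46.8% in shared and 47.4% in villi-only peaks.

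Most crypts-only peaks carried none of the other marks. Of the 6871, 6183 (90.0%, 89.3 to 90.7%) overlapped no H3K4me3, H3K27me3 or H3K9me3 peak in either compartment, compared with 80.2% (79.7 to 80.6%) of shared and 92.0% (91.4 to 92.6%) of villi-only peaks. None overlapped H3K9me2, for which the lists held 6 peaks in crypts and 3 in villi.

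H3K4me3, the promoter mark, was the most frequent of the other marks. In crypts it overlapped 485 crypts-only peaks (7.06%, 6.48 to 7.69%) and 442 of them in villi (6.43%, 5.88 to 7.04%). Over all distal crypts H3K4me1 peaks these shares were 13.1% and 13.7%, and for the peaks with a villi counterpart they were 14.5% and 15.4%. Villi-only peaks had it less often still, at 2.65% (2.32 to 3.02%) in crypts and 3.24% (2.88 to 3.65%) in villi. The overlap moved with score and width, which differ between the classes: in the top 50% of each list it was 14.8% in crypts for crypts-only peaks, 17.5% for shared and 3.61% for villi-only peaks, and under 1 kb of width 6.65%, 11.3% and 2.94%. The order of the 3 classes was the same in each of these strata. With only the centre of the H3K4me1 peak counted, the crypts H3K4me3 shares were 5.43%, 8.58% and 2.13%. In 414 crypts-only peaks H3K4me3 was called in both compartments, in 71 (1.03%) in crypts and not in villi, and in 28 (0.408%) in villi and not in crypts. The 442 peaks with villi H3K4me3 thus carried a villi call of that mark where no villi H3K4me1 peak was listed.

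The highest-scoring crypts-only peaks with H3K4me3 lay at Lck and Tlr5, which serve immune functions, and at 9430015G10Rik. The peak at Lck, the T cell receptor kinase, on chr4:129555562-129556507, scored 36.8 and had H3K4me3 in crypts and villi, 1865 bp downstream of a start site. At 9430015G10Rik the peak on chr4:156086574-156088506 scored 36.3 and had H3K4me3 in crypts alone. At Tlr5, the flagellin receptor, the peak on chr1:182959537-182960566 scored 35.9, lay in an intron 4749 bp downstream of a start site and had H3K4me3 in both compartments.

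H3K27me3 was less frequent at crypts-only peaks than at the other classes. It overlapped 105 of them in crypts (1.53%, 1.26 to 1.85%) and 172 in villi (2.50%, 2.16 to 2.90%), where all distal crypts H3K4me1 peaks gave 2.49% and 3.29%. Shared peaks gave 2.71% (2.53 to 2.90%) and 3.47% (3.27 to 3.68%), and villi-only peaks 3.42% (3.05 to 3.84%) and 4.42% (4.00 to 4.89%). Under 1 kb of width the villi shares were 2.60% for crypts-only, 6.45% for shared and 5.50% for villi-only peaks. The mark was in both compartments at 90 crypts-only peaks, in villi and not in crypts at 82 (1.19%, 0.963 to 1.48%) and in crypts and not in villi at 15 (0.218%, 0.132 to 0.360%). The villi H3K27me3 list is the longer one, with 13797 peaks against 7611, and the same 2 shares were 1.05% and 0.291% in shared peaks. About as many crypts-only as shared peaks, by share, thus had H3K27me3 in villi alone.

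The highest-scoring member with H3K27me3 lay in an intron of Ccdc192 on chromosome 18, was 4541 bp wide, scored 38.7 and had the mark in both compartments. A peak upstream of Bcas3 on chr11:85774696-85776430, which touched an exon and scored 28.2, had it in crypts alone. The peak 10336 bp upstream of Chst11, a chondroitin sulfotransferase gene, on chr10:82974079-82975162 scored 28.1 and had it in villi alone.

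H3K9me3 was nearly absent. In crypts it overlapped 10 crypts-only peaks (0.146%, 0.0791 to 0.268%) and 4 in villi (0.0582%, 0.0226 to 0.150%), beside 0.191% and 0.0701% of all distal crypts H3K4me1 peaks. Nearly all were overlaps at the edge, since the mark covered the centre of only 1 crypts-only peak (0.0146%) in each compartment. The highest-scoring of them were at Btnl9, a butyrophilin-like gene, with a score of 27.1, at Fam111a, a protease gene, with 20.1, and in an intron of Thrb, the thyroid hormone receptor beta gene, with 15.7, each with H3K9me3 in crypts alone.

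**Figure D2:**
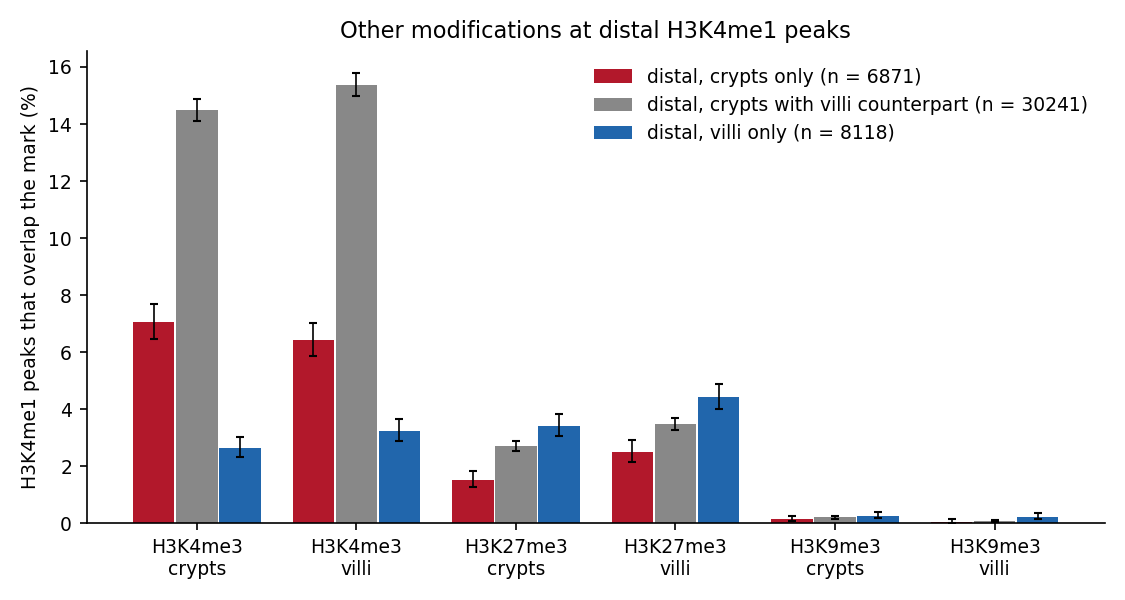
Share of distal H3K4me1 peaks (y axis, %) that overlapped a peak of H3K4me3, H3K27me3 or H3K9me3 in crypts or in villi (x axis) by at least 1 bp, for 6871 crypts-only, 30241 shared crypts and 8118 villi-only peaks, with 95% Wilson intervals. Crypts-only peaks stand between the other classes for H3K4me3, at 7.06% in crypts, and below both for H3K27me3, at 1.53% in crypts and 2.50% in villi.

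Counted by peak, the promoters of the nearest genes were more often H3K27me3-positive than those next to shared peaks. Counted by gene, beside genes with shared but no crypts-only peaks, the share with H3K27me3 in both compartments differed by less than the counting error. A promoter was taken as a start site with 1 kb of flanking sequence to each side. H3K27me3 was at the promoter of the nearest gene for 15.5% (14.6 to 16.3%) of crypts-only peaks in crypts and 19.8% (18.9 to 20.8%) in villi, whereas shared peaks gave 12.2% and 14.9% and villi-only peaks 14.1% and 16.1%. The promoter had it in villi and not in crypts for 340 crypts-only peaks (4.95%, 4.46 to 5.49%), against 3.49% (3.29 to 3.70%) of shared and 3.22% (2.85 to 3.62%) of villi-only peaks. H3K4me3 was at the nearest promoter for 80.3% of crypts-only peaks in crypts and 79.7% in villi, where shared peaks gave 83.4% and 83.2%. In the top 50% of each list the differences were smaller for H3K27me3 in crypts, at 12.0% (9.93 to 14.4%) for crypts-only and 11.1% (10.6 to 11.6%) for shared peaks, and for its presence in villi alone the shares were 4.70% (3.44 to 6.38%) and 3.51% (3.25 to 3.79%), whose intervals overlap.

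Counted by gene, so that a gene with many peaks enters only a single time, promoter H3K27me3 was in both compartments at 14.9% (13.9 to 16.1%) of the 4156 genes with a crypts-only peak and at 14.7% (13.9 to 15.7%) of the 5997 genes with shared but no crypts-only peaks. Promoter H3K27me3 was in crypts and not in villi at 0.626% (0.427 to 0.915%) and 0.850% (0.647 to 1.12%). The difference by peak in crypts was thus not seen between these groups of genes. The comparison also changed, since genes with both kinds of peak counted only among those with a crypts-only peak. In villi and not in crypts it was at 197 of the 4156 genes with a crypts-only peak (4.74%, 4.13 to 5.43%). That share was 3.37% (2.94 to 3.86%) of the genes with shared but no crypts-only peaks, 3.48% (3.00 to 4.02%) of 4976 genes with a villi-only peak and 3.70% (3.45 to 3.97%) of all 20698 autosomal protein-coding genes. With at least 3 crypts-only peaks it was 36 of 610 genes (5.90%, 4.29 to 8.06%), and with at least 3 villi-only peaks 15 of 704 (2.13%, 1.30 to 3.49%). The intervals of the last 2 shares did not overlap, although a gene can be in both groups. These groups also differed in the other states. H3K27me3 was in both compartments at 14.3% (11.7 to 17.3%) and 9.80% (7.82 to 12.2%), and in crypts alone at 0.656% (0.255 to 1.67%) and 1.85% (1.08 to 3.13%). Genes with promoter H3K27me3 in villi alone, named here after their values were seen, included Slc12a2, the basolateral sodium-potassium-chloride cotransporter, with 8 crypts-only peaks and no villi-only peak. Mycn, a Myc-family transcription factor gene, had 6 and none. The acetylcholine receptor gene Chrm3 had 7 crypts-only and 3 villi-only peaks. Nrp1, a co-receptor for semaphorins and VEGF, had 4 and none, and Gata4, a transcription factor of the proximal intestine, had 4 and 2. Among the 16 such genes with 4 or more crypts-only peaks H3K4me3 was at the promoter in both compartments except at Cntnap2, which had it in neither, and Bcas1, which had it in villi alone.

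Crypts-only peaks were spread over many genes. By nearest start site they fell to 4156 of 20698 autosomal protein-coding genes, of which 2709 had exactly 1, 610 had 3 or more, 140 had 5 or more and 15 had 10 or more. Of the 610 genes with 3 or more crypts-only peaks 194 had no villi-only peak, and of 704 with 3 or more villi-only peaks 302 had no crypts-only peak. Nearness on the chromosome does not show which gene an element acts on.

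Myc, the transcription factor gene through which Wnt signals drive cell growth, had by far the most. To it fell 24 crypts-only peaks, 19 shared peaks and 1 villi-only peak, so that 55.8% of its distal crypts peaks were crypts-only. Myc and the other genes of this group were picked for their number of crypts-only peaks, and their counts and shares are therefore a description that cannot be set against the share over all genes. The 24 lay on chr15:61480101-62647583, 12 upstream and 12 downstream of the start site, at distances of 30291 bp at the nearest, 153172 bp at the median and 658835 bp at the farthest, and 18 were over 100 kb away. Their scores ran from 10.3 over a median of 14.0 to 32.8, and 4 were in the top 50% of the list. The best of them, on chr15:61905608-61907421 and 77970 bp upstream, is the member whose centre is printed above. It had no missing villi number between its flanking villi peaks, as had 3 others of the 24. None of the 24 overlapped H3K4me3, and 1 overlapped H3K27me3, in both compartments. At the start site itself Myc had H3K4me3 in crypts and villi and H3K27me3 in neither.

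Sox9, a transcription factor of stem and Paneth cells, had 14 crypts-only, 24 shared and 3 villi-only peaks. They reached from 37463 to 833970 bp from its start site, 4 upstream and 10 downstream, with scores from 10.3 to 27.4. Klf5, a zinc finger factor of dividing crypt cells, had 13, 33 and 7 peaks of the 3 classes in the same order, and 5 of its 13 were in the top 50% of the list. H3K4me3 was at 3 of the 13, in both compartments. Gata6, a factor of the intestinal epithelium, had 12, 23 and 6. In the plot of positions and scores, the tallest peaks of Myc, Sox9 and Klf5 were shared ones, among which the crypts-only peaks lay.

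Of the other 6 of the 10 genes with most crypts-only peaks, 4 had at most 1 of them outside introns. Auts2, which codes for a component of a Polycomb complex, had 16 crypts-only, 33 shared and 4 villi-only peaks, 15 of the 16 in introns. Rad51b, a gene of recombinational DNA repair, had 15, 20 and 3, and all 15 lay in introns. Zfp608, a zinc finger gene, had 12, 42 and 2. Ptprd, a receptor phosphatase gene, had 11, 17 and 4, all 11 in introns. Esrrg, an orphan nuclear receptor gene, had 11, 10 and 1, with 10 of the 11 in introns, so that 52.4% of its distal crypts peaks were crypts-only. Rapgef5, an exchange factor gene for Rap GTPases, had 10, 21 and 3. Epha4, Pik3r1, Ccser1, Zfp36l1 and Zbtb20 also had 10 crypts-only peaks, with 0, 1, 1, 2 and 0 villi-only peaks in that order. Rapgef5 took the last place by the score of its best peak.

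**Figure D3:**
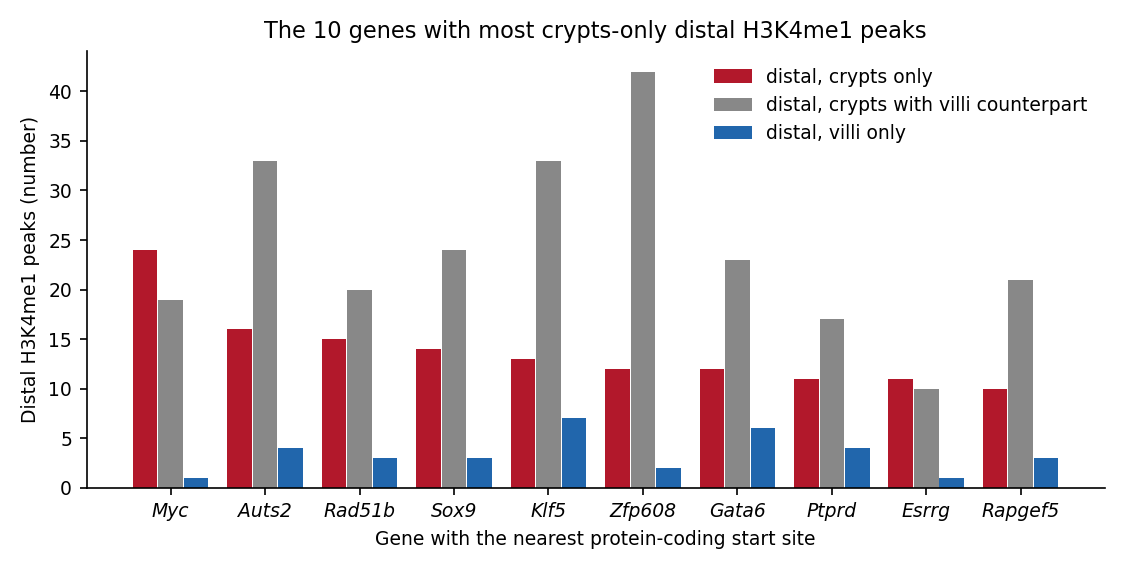
Number of distal H3K4me1 peaks (y axis) assigned by nearest start site to each of the 10 genes with most crypts-only peaks (x axis, ties by highest score), in crypts only, in crypts with a villi counterpart and in villi only. Myc, with 24, 19 and 1, and Esrrg, with 11, 10 and 1, have more crypts-only than shared peaks, and the other 8 genes have fewer.

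**Figure D4:**
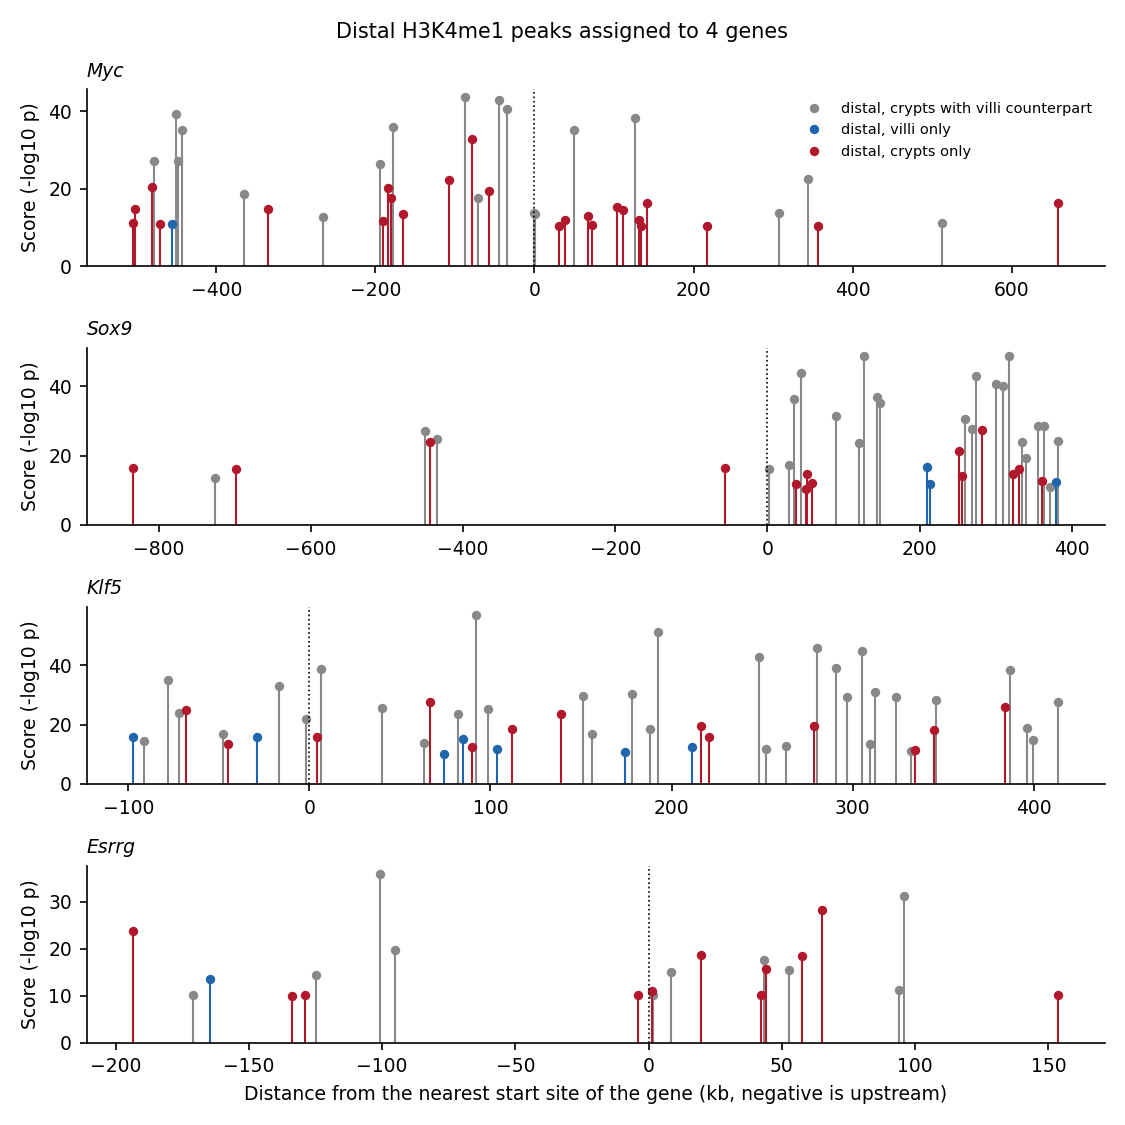
Distal H3K4me1 peaks assigned to Myc, Sox9, Klf5 and Esrrg, by distance from the nearest start site of the gene (x axis, kb, negative values upstream) and by score (y axis, read as −log10 p in the list of the peak's own compartment, so heights of villi-only peaks are on another list's scale). Crypts-only peaks reach 658835 bp from the start site of Myc and stand among taller shared peaks, as they do at Sox9 and Klf5.

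The gene lists were chosen with earlier results of these data known, and their counts are a description. Before they were counted, the labels were checked at promoters: 27 of 27 stem cell genes had promoter H3K4me3 in crypts and 25 in villi, the 2 without it in villi being Olfm4, a marker of stem cells, and Clca3b. Of 42 enterocyte genes 40 had it in each compartment. Of 30 lymphocyte genes 4 had it in crypts and 14 in villi, and the 10 found in villi alone included Cd3e, Cd8a and Gzma of T cells, so more lymphocyte promoters were marked in villi than in crypts. Their part in the comparison of H3K4me1 was not tested. In bulk chromatin, fewer cells of a type and less of a mark per cell cannot be told apart.

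Stem cell genes had more crypts-only peaks for their number of distal peaks than genes at large. To 20 of 27 listed genes fell 68 crypts-only peaks of 230 distal crypts peaks (29.6%, 24.0 to 35.8%), where the share over all genes was 18.5%, while in villi 23 of 201 (11.4%, 7.75 to 16.6%) were villi-only, against 20.6% over all genes. Without Sox9 the shares were 28.1% (22.2 to 34.9%) and 11.6%. The genes of the list differed, and many of the 68 peaks fell to Sox9, Slc12a2, Cdk6 and Znrf3. The share without all of these genes was not computed. Slc12a2 had 8 crypts-only, 4 shared and no villi-only peaks, the highest-scoring at 29.3 and 28641 bp upstream. Cdk6, the kinase partner of D cyclins, had 7, 5 and 2, and 2 of its 7 overlapped H3K27me3 in villi. Znrf3, the ubiquitin ligase that removes Wnt receptors, had 5, 1 and 0, and all 5 crypts-only peaks lay in introns with scores from 10.3 to 15.4. Axin2, the feedback inhibitor of Wnt signals, had 5, 9 and 1, with 1 of its 5 on H3K4me3 in both compartments.

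Among the other stem cell genes, Rgmb, a co-receptor for BMP ligands, had 4 crypts-only, 8 shared and no villi-only peaks, and its best, the wide peak of 5081 bp on chr17:16002635-16007715 with a score of 35.6, is printed above. Lrig1, an inhibitor of EGF receptors, had 4, 23 and 2, of which the peak 32856 bp upstream scored 26.9. Cdca7 had 3, 11 and 2, and Ephb2, the receptor that positions crypt cells, had 3, 13 and 1. Olfm4 had 2, 9 and 3, and Smoc2 had 1, 8 and 1. Igfbp4 and Tnfrsf19 each had no crypts-only, 2 shared and 1 villi-only peak. Lgr5, the receptor by which crypt stem cells are recognised, had 1 crypts-only, no shared and 1 villi-only peak. The crypts-only peak of Lgr5, on chr10:115583552-115584783, lay in an intron 2710 bp from a start site, scored 12.6 and overlapped H3K27me3 in villi and not in crypts, while its promoter had H3K4me3 and H3K27me3 in both. Ascl2, a stem cell transcription factor gene, had no distal peak of any class.

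Paneth cell genes had few peaks to count. Of 52 distal crypts peaks 12 were crypts-only (23.1%, 13.7 to 36.1%), and of 43 in villi 5 were villi-only (11.6%, 5.07 to 24.5%), both intervals including the shares over all genes. Fzd5, the Wnt receptor that Paneth cells need to mature, had 3 crypts-only, 16 shared and 1 villi-only peak, and its best, on chr1:64808381-64810245 in an intron 70630 bp upstream with a score of 30.9, is printed above. Wnt3, the ligand that Paneth cells supply, had 3, 3 and 2, and its peak on chr11:103808933-103809907 overlapped H3K4me3 and H3K27me3 in both compartments. Lyz1, the lysozyme gene of Paneth cells, had 1 crypts-only peak and no other, and 8 of 20 Paneth cell genes had promoter H3K4me3 in each compartment.

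The Wnt pathway list followed Myc. It had 83 crypts-only peaks of 326 (25.5%, 21.0 to 30.5%) and 54 villi-only of 303 (17.8%, 13.9 to 22.5%), and without Myc 59 of 283 (20.8%, 16.5 to 26.0%) and 53 of 284 (18.7%). After Myc the most fell to Bcl9, a co-activator of beta-catenin, with 7 crypts-only, 10 shared and 2 villi-only peaks. The cell cycle list had 42 of 126 (33.3%, 25.7 to 41.9%), of which 24 were those of Myc and 7 those of Cdk6, and without Myc 18 of 83 (21.7%, 14.2 to 31.7%), an interval that includes the share over all genes.

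Enterocyte genes were the list with the smallest crypts-only share. Of 267 distal crypts peaks 28 were crypts-only (10.5%, 7.36 to 14.7%), and of 336 in villi 75 were villi-only (22.3%, 18.2 to 27.1%). Over all genes the shares were 18.5% and 20.6%, so the crypts-only interval lay below the share over all genes and the villi-only interval included it. The most fell to Slc10a2, the ileal bile acid transporter, with 5 crypts-only, 9 shared and 2 villi-only peaks, and the best of the 5, with a score of 22.8, lay 754467 bp upstream. Slc5a1, the sodium-glucose cotransporter, had 2, 6 and 5, and both crypts-only peaks, 1586 and 7939 bp downstream, overlapped H3K4me3 in both compartments.

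For the remaining lists the intervals of the crypts-only share included 18.5%. Intestinal transcription factors gave 19.9% (16.1 to 24.3%) with 72 peaks, of which Sox9, Klf5 and Gata6 supplied 39. The Notch pathway gave 17.2% (12.0 to 24.2%), led by Maml3, a Notch co-activator, with 9 crypts-only and 1 villi-only peak and by Hes1, the Notch target repressor, with 6 and 3. Secretory progenitor genes gave 16.2% (10.4 to 24.4%), with 4 at Sox4 and 3 at Atoh1, the factor that commits cells to the secretory lineage. The best peak of Atoh1, on chr6:64741477-64744713 and 12352 bp downstream, was 3237 bp wide and scored 26.8.

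Genes of cells outside the epithelium had few crypts-only peaks. There were 5 of 38 distal crypts peaks (13.2%) at lymphocyte genes, 1 of them at Lck and 2 at Ptprc, 4 of 27 (14.8%) at myeloid genes, 3 of them at Mrc1, and 5 of 22 (22.7%) at genes of enteric nerve and glia, 3 of them at Snap25 and 1 each at Erbb3 and Sox10. Mesenchymal and smooth muscle genes had 14 of 66 (21.2%), of which 3 were at Foxf1 and 2 at Zeb1, and endothelial genes 11 of 56 (19.6%), of which 3 were at Pecam1 and 2 at Sox17. These counts are too small to set apart from the 18.5% over all genes.

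**Figure D5:**
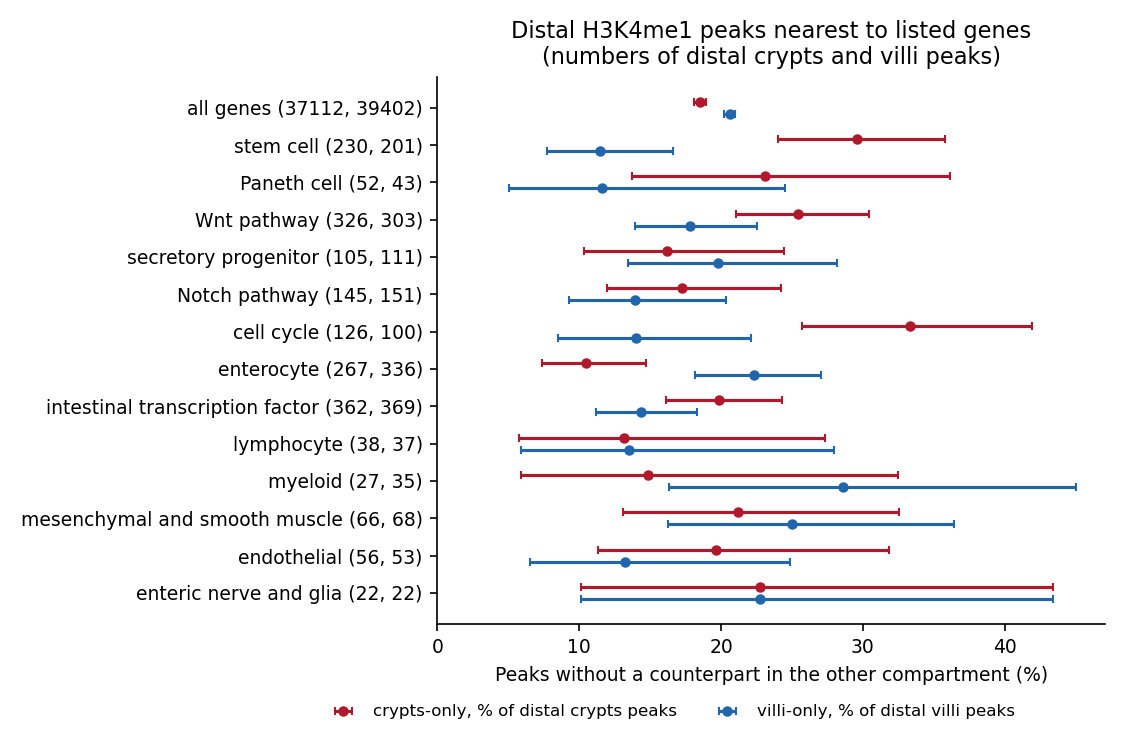
Share of distal H3K4me1 peaks without a counterpart (x axis, %) among those nearest to genes of each list (y axis, with the numbers of distal crypts and villi peaks), in red crypts-only peaks of crypts and in blue villi-only peaks of villi, with 95% Wilson intervals. All genes have 18.5% crypts-only and 20.6% villi-only peaks, stem cell genes 29.6% and 11.4%, and enterocyte genes 10.5% and 22.3%, the last with an interval that includes the share over all genes.

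The best-scoring crypts-only peak lay on chr4:136301672-136303761, 7181 bp upstream of Hnrnpr, an RNA-binding protein gene, with a score of 44.9 and the nearest villi peak 5638 bp away. Those that followed were nearest to Ahr, the xenobiotic-sensing transcription factor gene, at 41.4, Lrrc28 at 40.6 and Mycl, a Myc-family gene, at 39.9 on chr4:123004766-123006018. Next came Lrch1 at 38.9, Ccdc192 at 38.7, Gtf2ird1 at 37.5 and Lck at 36.8. Behind these 8 peaks, 5 were tied at 36.3, those at Rapgef5, Bicd2, Nfkbiz, 9430015G10Rik and Ppp2r3a. Of the first 8, 3 touched an exon, those at Ahr, Lrrc28 and Lck, and 2 carried H3K4me3 or H3K27me3, those at Ccdc192 and Lck, so that 4 were both outside exons and without another mark. Among all crypts-only peaks 13.7% touched an exon and 90.0% carried none of the other marks. Each of the 8 had at least 1 villi number missing between its flanking villi peaks.

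Crypts-only windows differed from the other classes in some short motifs. Each of the 12 motifs was searched on both strands of the 300-base windows. AGATAA, a core of GATA factor sites, was in 23.3% (22.3 to 24.3%) of crypts-only windows, 19.7% (19.2 to 20.1%) of shared and 18.3% (17.5 to 19.2%) of villi-only windows, where 20.4% of all distal crypts windows and 11.2% of 32817 RefSeq promoters of the same length held it. TGTTTAC, of forkhead factors, was in 6.35% (5.79 to 6.95%), 5.17% (4.92 to 5.42%) and 4.58% (4.15 to 5.06%) of the 3 classes and in 5.38% of all distal crypts windows. TTTATNG, of CDX factors, was in 19.2% (18.3 to 20.1%), 17.0% (16.6 to 17.4%) and 16.0% (15.2 to 16.8%), and in 17.4% of all distal crypts windows. TGANTCA, of AP-1 factors, ran the other way, with 9.94% (9.26 to 10.7%), 11.6% (11.2 to 11.9%) and 13.6% (12.9 to 14.4%), and 11.3% of all distal crypts windows.

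In windows with a G+C content of 40 to 50%, some of these differences were smaller. AGATAA was in 23.5% (22.2 to 24.9%) of crypts-only, 21.5% (20.9 to 22.1%) of shared and 20.3% (19.2 to 21.5%) of villi-only windows, and TGANTCA in 10.1% (9.21 to 11.1%), 12.1% (11.6 to 12.6%) and 14.1% (13.1 to 15.2%), so that crypts-only and shared intervals remained apart for both. Among crypts-only windows in the top 50% of the list, however, TGANTCA was at 11.2% (9.25 to 13.6%), which includes the 11.3% of all distal crypts windows, while AGATAA was at 24.6% (21.8 to 27.7%), above the 20.4% of all distal crypts windows. TGTTTAC was in 6.48% (5.75 to 7.30%), 5.48% (5.14 to 5.83%) and 5.01% (4.41 to 5.69%), and TTTATNG in 18.9% (17.7 to 20.2%), 18.2% (17.6 to 18.8%) and 17.2% (16.2 to 18.4%), where the crypts-only interval overlapped that of shared windows.

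Over all windows, CTTTGAT, the letters of the Wnt effectors TCF and LEF, was in 6.46% (5.90 to 7.07%), 6.00% (5.73 to 6.27%) and 5.63% (5.15 to 6.15%), intervals that overlap, and at a G+C content of 40 to 50% in 6.69%, 6.41% and 6.53%. Over all windows again, AAAGTCC of HNF4 gave 7.03%, 7.52% and 7.61%, AGGAAGT of ETS factors 11.3%, 10.7% and 9.62%, and CATTGTT of SOX factors 5.30%, 4.73% and 4.36%. Over all windows, CACACCC of KLF factors, CAGCTG as an E-box, TGTGGTT of RUNX factors and CCAAT of NF-Y differed by less than 1 percentage point between the classes, and were in 11.0%, 17.1%, 6.64% and 32.5% of all distal crypts windows. In the top 50% of each list, however, CAGCTG was in 14.2% (12.0 to 16.8%) of crypts-only and 18.5% (16.3 to 20.9%) of villi-only windows.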

How the data were processed

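Per the methods and the submitters' processing notes, reads were mapped with Bowtie 1.1.2 to the mouse (mm10) and fly genomes, duplicates and reads that fitted both were dropped, and MACS2 2.1.1 was run with a p-value limit of 1e-10. No pooling is stated, and H3K9me2 is not among the modifications for which the methods describe peaks. Each deposited list gives positions and a value per peak, read here as the −log10 p-value of the authors' call since none was below 10, although a q-value is possible. Spike-in scaling does not enter that value, which served only to rank peaks within a list. Files of the 2 inputs were not analysed here. Overlaps of at least 1 bp, distances to GENCODE M21 start sites, motifs and Wilson intervals were computed with Python 3.11.15, NumPy 2.4.6 and pysam 0.24.0, after the overlap and distance code was tested on simulated peaks, and figures with Matplotlib 3.10.9. Sequences came from the GRCm38 RefSeq assembly.

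The members, gene lists, motifs and rules were chosen with earlier results of these data known. Named were the 10 genes with most members, with ties taken by highest score, and the 10 highest-scoring members with those tied at the last place. Also named were the 2 genes with most members in each list, each stem or Paneth cell gene with 3 or more, and the 3 highest-scoring members with each mark. Other genes were chosen after their values were seen. No enrichment or permutation test was made. Alternatives covered the overlap rule, the start sites, the score, merging of peaks and the definition of a mark.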

Additional observations from a re-analysis of the deposited data

How the results depend on the processing

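The 6871 peaks became 12154 when an overlap had to reach 50% of both peaks, with H3K4me3 at 9.93% in crypts and 10.1% in villi, 31.2% within 10 kb of a start site and 27.7% in the top 50% of the list. The top 50% of the crypts list left 809, with H3K4me3 at 14.8% and 12.5%, H3K27me3 at 1.11% and 1.73% (crypts and villi), H3K9me3 in villi at 0 and 38.3% in introns. H3K4me3 in crypts and villi was 6.20% and 5.60% with no villi peak within 1 kb, 5.20% and 4.64% over 5 kb from start sites, 5.38% and 4.91% with start sites of every gene type, and 6.23% and 5.67% with crypts peaks under 1 kb apart merged. In the first, second and last of these 25.0%, 13.9% and 24.5% were within 10 kb of a start site, and with every gene type 46.6% were in introns. A mark that had to cover 50% of the peak gave H3K4me3 4.99% and 3.97%, H3K27me3 1.19% and 1.78%, and H3K9me3 0.0146% in each compartment. With the top 50% of the list of the mark, H3K4me3 was at 2.85% and 2.75% and H3K27me3 at 0.902% and 1.62%. A mark at the peak centre, an alternative chosen after seeing the data, gave H3K4me3 5.43% and 4.32%, H3K27me3 1.16% and 1.73%, and H3K9me3 0.0146% in each. The other 37 values stayed within the interval of the main value, or for the number of peaks within 1.5 times. Leaving out the leading gene of a list, the G+C stratum and the width and score strata were also chosen after seeing the data. With 1 library per group no replicate could be left out, and depth, which the lists do not hold, limits what absence from a list means. The cause of these differences was not tested.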
